A study of Mus musculus with 29 samples.

Results

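The 8 genes described here encode enzymes, a transporter and receptor-proximal proteins of liver glucose metabolism and insulin signalling: Pklr, Pck1, G6pc, Fbp1, Slc2a2, Insr, Irs1 and Irs2. They were chosen by name among the non-control spots of a mouse Agilent 2-colour expression array. The array held 11 probes for them among 39429 probes, and all 8 were among the 19455 genes tested. Livers came from male C57BL/6N mice that left a chow diet at 3 months of age and ate, without restriction, a corn oil-based high-fat diet for 7 weeks. That diet alone (cHF) was the control, with 7 livers. In 8 further livers (cHF+PC) about 7% of the dietary lipid was replaced by EPA and DHA, long-chain omega-3 fatty acids, supplied as phospholipids rich in phosphatidylcholine. In 6 livers (cHF+R) the diet contained a low dose of rosiglitazone, a thiazolidinedione drug that activates the nuclear receptor PPARgamma. Both additions were combined in 8 livers (cHF+PC+R). All 4 groups shared the high-fat diet, and a lean group was not analysed here. Each array compared the Cy5-labelled RNA of an individual liver with a Cy3-labelled pool of the study's samples. Values are therefore log2 ratios of liver to pool. They give differences between groups for a gene and do not rank genes by abundance. Each replicate is a separate liver, so the p-values measure the spread between livers.

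In the liver, glycolysis and gluconeogenesis run through the same intermediates in opposite directions. Pyruvate kinase (Pklr) closes glycolysis, whereas phosphoenolpyruvate carboxykinase (Pck1), fructose bisphosphatase (Fbp1) and glucose-6-phosphatase (G6pc) carry the steps of glucose production that bypass the irreversible glycolytic reactions. The transporter GLUT2 (Slc2a2) moves glucose across the hepatocyte membrane in both directions. Insulin acts through its receptor (Insr) and the docking proteins IRS1 and IRS2. It represses Pck1, G6pc and Irs2 through the transcription factor FOXO1, while Pklr is induced by glucose through the factor ChREBP (Mlxipl) and its partner MLX at a paired element in the promoter.

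RefSeq promoters on build GRCm38.p6 were found for 7 of the 8 genes, and Insr was without an entry. The windows below hold the 250 bases before an annotated start, and they are shown because they held matches to the motifs searched. Whether these genes are regulated through the matches was not tested. Capitals mark matches to 4 motifs searched on both strands. The first is the paired glucose element CACGNGNNNNNCNCGTG. The second is the insulin-response word TGTTTTG or TATTTTG, the third is the E-box CACGTG and the fourth is the cAMP-response word TGACGTCA. Positions count back from the start, with -1 as the base before it.

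Pklr, second of 2 starts, chr3:89136373-89136622, plus strand: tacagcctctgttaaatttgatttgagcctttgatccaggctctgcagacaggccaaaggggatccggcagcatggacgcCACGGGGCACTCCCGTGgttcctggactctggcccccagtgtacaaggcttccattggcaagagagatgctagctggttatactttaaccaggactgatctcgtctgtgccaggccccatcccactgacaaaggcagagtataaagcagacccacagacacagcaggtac

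G6pc, chr11:101367466-101367715, plus strand: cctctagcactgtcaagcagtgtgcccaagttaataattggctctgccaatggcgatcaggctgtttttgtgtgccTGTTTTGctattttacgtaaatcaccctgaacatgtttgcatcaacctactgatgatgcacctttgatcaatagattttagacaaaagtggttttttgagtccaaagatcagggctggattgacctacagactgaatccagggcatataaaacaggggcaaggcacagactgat

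Irs1, chr1:82291440-82291689, minus strand: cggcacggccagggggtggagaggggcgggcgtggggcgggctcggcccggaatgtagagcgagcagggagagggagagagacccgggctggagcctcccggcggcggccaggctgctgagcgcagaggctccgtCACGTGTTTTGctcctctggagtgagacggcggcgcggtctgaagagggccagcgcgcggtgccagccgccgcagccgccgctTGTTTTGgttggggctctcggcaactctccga

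Irs2, chr8:11008930-11009179, minus strand: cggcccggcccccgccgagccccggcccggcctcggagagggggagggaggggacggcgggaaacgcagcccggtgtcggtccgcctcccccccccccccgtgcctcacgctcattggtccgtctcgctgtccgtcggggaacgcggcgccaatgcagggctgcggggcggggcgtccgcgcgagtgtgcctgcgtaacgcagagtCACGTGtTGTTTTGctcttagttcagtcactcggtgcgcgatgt

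The paired glucose element was present at -170 to -154 of the second Pklr start, as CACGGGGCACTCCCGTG. It was held by 13 of 32851 promoters of the same length (0.0396%). The fixed bases of the pattern leave out looser forms, so this share is that of the pattern as searched. The insulin-response word was found in G6pc (-174 to -168), in Irs1 (-111 to -105 and -32 to -26) and in Irs2 (-37 to -31), and 9.14% of all promoters held it. Irs1 and Irs2 also held an E-box, at -115 to -110 and at -44 to -39, a motif of 6.02% of all promoters. In Irs1 the E-box and the first insulin-response word overlap. The cAMP-response word, held by 1.55% of promoters, had no exact match in the 7 genes. The windows of Pck1, Fbp1, Slc2a2 and the first Pklr start held no exact match to any of the 4 motifs. Variant words and sites farther from the start were not searched. The Pck1 window holds ttacgtca, which is close to the cAMP-response word but was not counted by the search.

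The 29 arrays lay on 8 slides, with no more than 1 array of a group per slide. Between 55.0% and 62.5% of the 43020 non-control spots were well above background in Cy5, except on cHF replicate 4 with 80.8%. The median correlation between arrays over tested genes was 0.43 within groups and 0.19 between groups. With the other arrays of its own group, cHF+R replicate 6 had the lowest median correlation, 0.17. The lowest correlation between arrays over all probes was -0.31, between cHF+PC replicate 6 and cHF+R replicate 5. The labels state the dyes, so directions were kept. All 11 hepatocyte markers were measured, among them albumin (Alb) and transthyretin (Ttr). Among markers of other cells, none of 9 Kupffer cell, 6 lymphocyte or 4 cholangiocyte genes passed the test in any comparison. Of 7 stellate cell markers Lrat fell in 3 comparisons, of 8 endothelial markers Cdh5 fell in 2, and of 4 pancreatic markers Cela1 fell in 2. Of the hepatocyte markers Cps1 rose (0.53) and Ttr (-0.59) and Serpina1a (-0.30) fell with PC+R, with a list median of 0.11. Ttr also fell with PC (-0.50) and Serpina1a with R (-0.35). In cHF+PC+R against cHF+R, Cps1 (0.56) and Tdo2 (0.21) rose and the list median was 0.21. The values of the adipocyte and erythroid lists stand below beside Pck1 and Pklr. In whole liver, fewer cells of a type and less RNA per cell cannot be told apart.

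Pklr was lower in both groups given the phospholipids and lowest with the combination. Its log2 ratio in cHF livers ranged from 0.16 to 0.95 with a median of 0.48. The cHF+R livers spanned -0.72 to 0.64 with a median of 0.18. In cHF+PC livers it ran from -0.98 to 0.07 with a median of -0.22, and in cHF+PC+R livers from -1.04 to -0.57 with a median of -0.81. No liver of either phospholipid group reached the lowest cHF liver, while the cHF+R livers overlapped every other group. The overlap with cHF+PC+R rested on cHF+R replicate 6 alone (-0.72), as the next cHF+R liver was at -0.03.

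**Figure D1:**
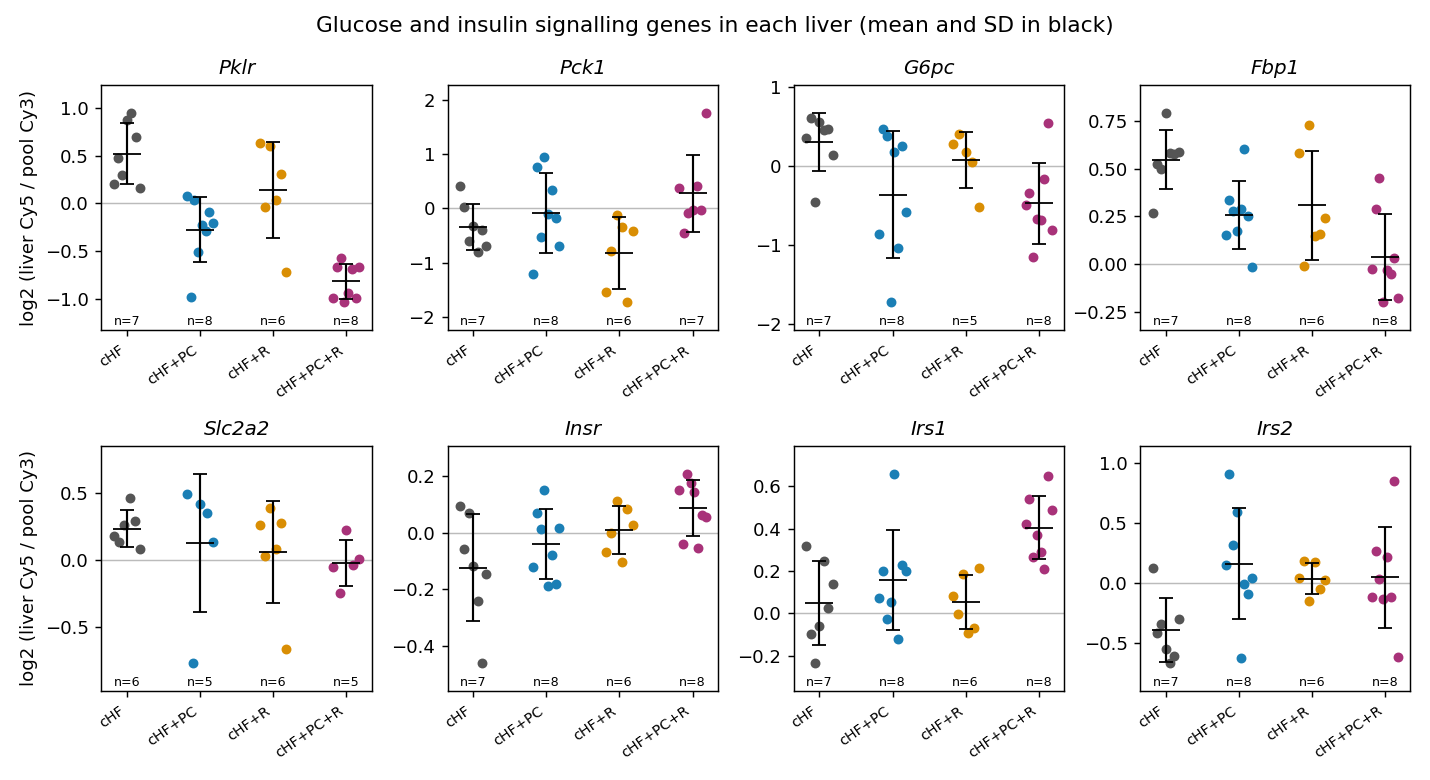
Log2 ratio of each liver to the pool for the 8 genes (y axis, with its own scale in each panel) by diet group (x axis); points are livers, black bars are mean and SD, and n is the number of livers with a value. Pklr in cHF+PC+R livers lies between -1.04 and -0.57, below all 7 cHF livers, whereas the groups of Slc2a2 overlap.

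Against cHF, Pklr fell by 0.80 ± 0.17 (SE) on the log2 scale with PC, which is 1.74-fold (limma with Benjamini-Hochberg adjustment, adjusted p = 0.00563). With PC+R it was 2.54-fold lower (log2 change -1.34 ± 0.17, adjusted p = 6.28e-06). Adding PC to rosiglitazone also lowered it, by 1.95-fold (log2 change -0.96 ± 0.17, adjusted p = 0.000901), where 4 of 8 cHF+PC+R livers lay below every cHF+R liver. Rosiglitazone alone gave -0.38 ± 0.18 (adjusted p = 0.307), and -0.48 to -0.21 with arrays left out. Adding it to PC gave -0.55 ± 0.16 (adjusted p = 0.221), and neither change passed. The interaction of the 2 additions was -0.16 with a 95% interval of -0.66 to 0.33. Within slides, Pklr was lower in the cHF+PC liver than in the cHF liver on 7 of 7 slides (differences of -1.46 to -0.13) and lower in the cHF+PC+R liver on 7 of 7 (-1.82 to -0.83). With slide as a block the changes were -0.77 (adjusted p = 0.0112) and -1.31 (adjusted p = 3.43e-05).

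The 3 calls of Pklr held with each of the 29 arrays left out in turn. Under median centring in place of loess the change with PC kept its size (-0.84) but not its call (adjusted p = 0.40). The change of cHF+PC+R against cHF+R had adjusted p = 0.0647 there (-1.08) and 0.0626 after scaling between arrays (-0.92). Pklr is also the pyruvate kinase gene of red cells. Of 4 erythroid markers 3 were measured. The mean of their log2 ratios ranged from -0.21 to 0.31 in cHF, from -0.18 to 0.31 in cHF+PC, from -0.48 to -0.02 in cHF+R and from -0.48 to 0.09 in cHF+PC+R livers. Alas2, the erythroid heme synthesis enzyme, fell with R (-0.42), with PC+R (-0.47) and in cHF+PC+R against cHF+PC (-0.41). The other 2 measured markers did not pass in these comparisons. The medians of the 3 markers there were -0.19, 0.02 and -0.10, so with PC+R the list as a whole did not fall. The part of red cells in the Pklr result was not tested.

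The Pklr probe is a 60-base sequence from the array file, shown because the Pklr result rests on it alone. Its coordinates on mm9, chr3:88948907-88949425 on the plus strand, span 519 bases, so it does not lie in 1 unbroken genomic stretch.

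Pklr probe: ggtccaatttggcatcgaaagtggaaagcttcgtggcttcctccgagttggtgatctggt

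Of the 3 genes of glucose production, Fbp1 fell with the combination, Pck1 was higher in cHF+PC+R than in cHF+R, and G6pc passed in no comparison, though under some alternatives it did with PC+R. Pck1 turns oxaloacetate into phosphoenolpyruvate, and its probe lies at chr2:172984307-172984366 (mm9). Its log2 ratio lay between -0.81 and 0.40 (median -0.40) in cHF, between -1.21 and 0.94 (median -0.14) in cHF+PC, and between -1.73 and -0.12 (median -0.60) in cHF+R livers. In the 7 cHF+PC+R livers with a value it lay between -0.46 and 1.75 with a median of -0.03. The groups overlapped in every comparison, and 6 of those 7 livers lay above every cHF+R liver. Pck1 was higher in cHF+PC+R than in cHF+R (log2 change 1.096 ± 0.337, 2.14-fold, adjusted p = 0.045), and on 5 of 5 slides that held both (0.04 to 2.13). Against cHF the changes were 0.26 with PC, -0.47 with R and 0.62 with PC+R, with adjusted p of 0.715, 0.547 and 0.237. The change with PC was -0.24 after scaling between arrays and -0.01 with array weights.

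The Pck1 call was near the threshold. It was lost in 10 of 16 alternative settings, among them slide as a block (1.01, adjusted p = 0.0804), and in 12 of 29 fits with an array left out, where the change was 0.85 to 1.15 and the adjusted p 0.0502 to 0.129. These arrays were cHF replicates 4, 6 and 7, cHF+PC replicates 5 and 7, cHF+R replicates 1, 2 and 5, and cHF+PC+R replicates 1, 4, 5 and 7. Pck1 is also expressed in fat. Of 7 adipocyte markers 4 were measured, and the probes of Adipoq and Plin1 were well above background on no more than 2 arrays and that of Lep on 0. The mean of the measured markers was highest in cHF+R livers (-0.36 to 1.39), against -1.49 to -0.75 in cHF, -1.88 to -0.99 in cHF+PC and -1.56 to 1.22 in cHF+PC+R. Of these 4 markers 3 rose with R (list median 0.96) and 2 fell in cHF+PC+R against cHF+R (list median -0.73). Cfd (adipsin) rose by 4.51 with R, and its change in cHF+PC+R against cHF+R was -3.01. Both lie far from the list medians, so Cfd weighs heavily in the mean. The part of fat cells in the Pck1 result was not tested.

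G6pc, which releases free glucose from glucose phosphate, was read by a probe at chr11:101238947-101239006 (mm9). Its values were -0.45 to 0.61 (median 0.46) in cHF, -1.72 to 0.47 (median -0.20) in cHF+PC and -1.15 to 0.55 (median -0.58) in cHF+PC+R. The 5 cHF+R livers with a value read 0.28, 0.41, 0.17, 0.06 and -0.51. Of the cHF+PC livers 4 of 8, and of the cHF+PC+R livers 5 of 8, lay below the lowest cHF liver. The changes against cHF were -0.67 ± 0.27 with PC (95% interval -1.23 to -0.11, adjusted p = 0.175) and -0.77 ± 0.27 with PC+R (-1.33 to -0.22, adjusted p = 0.0703), and neither passed. The latter passed without cHF replicate 3 (-0.90, adjusted p = 0.0459), cHF+PC replicate 4 (-0.77, 0.0351) or cHF+PC+R replicate 7 (-0.92, 0.0289). It also passed in the deposited value table (-0.84, adjusted p = 0.0478), with only the groups compared (-0.77, 0.0248) and with array weights (-0.85, 0.0212). With R it was -0.22 (adjusted p = 0.794), and 0.13 under median centring.

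Fbp1, which removes a phosphate from fructose bisphosphate, was read at chr13:62966175-62966234 (mm9) and fell with the combination. In cHF livers its log2 ratio ranged from 0.27 to 0.79 (median 0.58), in cHF+PC from -0.01 to 0.60 (median 0.26), in cHF+R from -0.01 to 0.73 (median 0.20) and in cHF+PC+R from -0.20 to 0.45 (median -0.03). In the last group 6 of 8 livers lay below the lowest cHF liver. The change with PC+R was -0.51 ± 0.10, a 1.42-fold fall (adjusted p = 0.00212), lower on 7 of 7 slides, and -0.49 with slide as a block (adjusted p = 0.00475). It held with each array left out. It was lost under median centring (-0.44), scaling between arrays (-0.53) and with Cy5 alone (-0.78), where adjusted p was 0.898, 0.401 and 0.202. The changes with PC (-0.29 ± 0.10, adjusted p = 0.121) and R (-0.24 ± 0.11, adjusted p = 0.306, and 0.14 under median centring) did not pass, though array weights called that with PC (-0.38, adjusted p = 0.0115). When PC was added to R, 5 of 8 livers lay below the lowest cHF+R liver, but the change of -0.27 ± 0.11 did not pass (adjusted p = 0.126), except in the deposited value table (-0.36, adjusted p = 0.0281).

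Slc2a2, read at chr3:28627016-28627075 (mm9), passed in no comparison. Spots marked as outliers by the scanner software left it with values in 22 livers. These ran from 0.08 to 0.46 in 6 cHF livers and from -0.66 to 0.39 in 6 cHF+R livers. The 5 cHF+PC values were 0.49, -0.76, 0.41, 0.35 and 0.14, and the 5 cHF+PC+R values were -0.05, -0.25, 0.23, -0.04 and 0.01. All groups overlapped. The change with PC+R was -0.25 with a 95% interval of -0.64 to 0.13 (adjusted p = 0.42), and -0.27 with the marked spots kept, which gave all 29 livers a value. With PC it was -0.11 (95% interval -0.49 to 0.27), and it was positive without cHF+PC replicate 2 (0.11), after scaling between arrays (0.20) and with array weights (0.06).

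Of the genes of insulin reception, Irs1 and Insr rose with the combination by less than 0.4 log2 units, each on only some of its probes. Irs1 was read by 2 probes and Insr by 3. The brighter Irs1 probe (chr1:82229692-82229751, mm9) gave -0.23 to 0.32 (median 0.02) in cHF, -0.12 to 0.66 (median 0.14) in cHF+PC, -0.09 to 0.21 (median 0.04) in cHF+R and 0.21 to 0.65 (median 0.40) in cHF+PC+R livers. Of the last group 5 of 8 lay above every cHF liver and 7 of 8 above every cHF+R liver. Irs1 rose by 0.36 ± 0.09 against cHF (1.28-fold, adjusted p = 0.0125) and by 0.35 ± 0.10 against cHF+R (1.28-fold, adjusted p = 0.0226). It was higher on 6 of 7 and 6 of 6 slides, and with slide as a block the changes were 0.37 (adjusted p = 0.0179) and 0.35 (adjusted p = 0.0322). The change with PC alone was 0.11 ± 0.09 (adjusted p = 0.564) and with R alone 0.00 ± 0.10 (adjusted p = 0.991, with the sign turned under 5 alternatives, to -0.08 at most).

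The second Irs1 probe (chr1:82233564-82233623) was well above background on 11 of 29 arrays and changed by 0.09 (95% interval -0.03 to 0.20) and -0.02 (-0.14 to 0.10) in the same comparisons, without passing. The call against cHF+R was lost without cHF+R replicate 4 (0.32, adjusted p = 0.0573) or replicate 5 (0.33, adjusted p = 0.0568) and with the mean of both probes (0.17, adjusted p = 0.102). Median centring (0.24, adjusted p = 0.983) and scaling between arrays (0.31, adjusted p = 0.389) also lost it. That against cHF was lost under median centring (0.49, adjusted p = 0.754) and scaling between arrays (0.24, adjusted p = 0.642).

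For Insr, the brightest probe (chr8:3151667-3151726) ran from -0.46 to 0.09 in cHF livers and from -0.06 to 0.21 in cHF+PC+R livers, where 4 of 8 lay above every cHF liver. Its medians were -0.12 and 0.10, with -0.03 in cHF+PC (-0.19 to 0.15) and 0.01 in cHF+R (-0.10 to 0.11). The change with PC+R was 0.21 ± 0.07, or 1.16-fold (adjusted p = 0.0406), and the direction was the same on 7 of 7 slides. The other probes, chr8:3154024-3154083 and chr8:3155472-3155531, were well above background on all 29 arrays and changed by 0.04 (95% interval -0.06 to 0.14) and 0.06 (-0.03 to 0.16). Neither passed (adjusted p = 0.696 and 0.423), and the mean of the 3 probes gave 0.10 (adjusted p = 0.113). Median centring (0.33, adjusted p = 0.883), scaling between arrays (0.20, adjusted p = 0.284) and Cy5 alone (0.19, adjusted p = 0.167) gave no call. Nor, at 0.21, did testing without the filter on dim probes (adjusted p = 0.0569) or fitting only the groups compared (adjusted p = 0.0767). The call of the brightest probe was lost in 9 of 29 fits with an array left out (changes of 0.15 to 0.21, adjusted p 0.0536 to 0.113): cHF replicates 4, 5, 6 and 7, and cHF+PC+R replicates 1, 3, 4, 5 and 7.

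**Figure D2:**
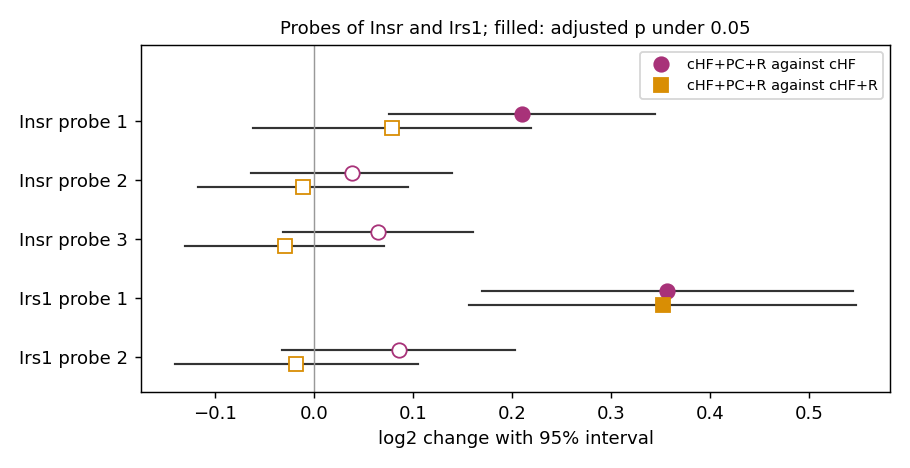
Log2 change (x axis) with its 95% interval for the 3 Insr and 2 Irs1 probes (y axis), cHF+PC+R against cHF (circles) and against cHF+R (squares); filled symbols have adjusted p under 0.05 over all probes. The first Irs1 probe moves by 0.36 and 0.35 and the first Insr probe by 0.21 against cHF, whereas the other 3 probes lie between -0.03 and 0.09.

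Irs2, the docking protein whose gene insulin represses, was read at chr8:11004490-11004549 (mm9) and had its lowest median in cHF. Its log2 ratio was -0.67 to 0.12 (median -0.42) in cHF, -0.63 to 0.91 (median 0.10) in cHF+PC, -0.15 to 0.18 (median 0.03) in cHF+R and -0.62 to 0.85 (median -0.04) in cHF+PC+R. The cHF+R livers were the most alike, with an SD of 0.13 against 0.46 and 0.42 in the phospholipid groups. The changes against cHF were 0.56 ± 0.18 with PC (95% interval 0.20 to 0.92, adjusted p = 0.0684), 0.43 ± 0.19 with R (0.05 to 0.82, adjusted p = 0.261) and 0.44 ± 0.18 with PC+R (0.08 to 0.80, adjusted p = 0.109), and none passed. That with PC passed without cHF replicate 1 (0.64, adjusted p = 0.0384), cHF+PC replicate 5 (0.67, 0.0165) or cHF+PC+R replicate 7 (0.56, 0.0438), and that with PC+R without cHF+PC+R replicate 8 (0.54, 0.0435). Of 16 other alternatives 5 also called the change with PC: no background subtraction (0.61, adjusted p = 0.0391), processed signals (0.71, 0.0449), the deposited value table (0.64, 0.04), the replicate block (0.61, 0.0378) and array weights (0.52, 0.0382). The interaction was -0.55 ± 0.25 (unadjusted p = 0.0403, adjusted p = 0.72).

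By comparison, 1 of the 8 genes passed for cHF+PC against cHF, where 3.93% of all tested genes did (1.82% higher and 2.11% lower). None passed for cHF+R against cHF (background 3.12%, with 2.03% higher and 1.09% lower). There 3 of the 8 had an unadjusted p under 0.05, as did 2911 of all 19455 genes. A fit of only these groups called Irs2 (adjusted p = 0.0419). For cHF+PC+R against cHF 4 passed, Pklr and Fbp1 downward and Insr and Irs1 upward (background 9.51%, with 4.76% lower and 4.74% higher). For cHF+PC+R against cHF+R 3 passed, Pklr downward and Pck1 and Irs1 upward (background 7.14%, with 3.83% lower and 3.31% higher). Without cHF+R replicate 5 only Pklr passed there. None passed for cHF+PC+R against cHF+PC (background 0.134%, with 0.118% higher and 0.0154% lower). An unadjusted p under 0.05 was found there for 3 of the 8 and for 1661 of all 19455 genes. Pklr was called there with array weights (-0.67, adjusted p = 0.0242). The limma interaction test called 0 of 19455 genes (background 0%), with 1290 genes and 1 of these 8 at an unadjusted p under 0.05, and 3 genes with array weights. The median change of the 8 genes lay between -0.20 (R against cHF) and -0.01 (PC against cHF) over the 5 group comparisons, beside -0.01 to 0.01 over all genes. The 3 comparisons with cHF share its 7 livers, as other pairs of comparisons share groups. The background also moved with single arrays. For cHF+PC against cHF it was 2.48% without cHF replicate 5 and 2.26% without cHF+PC replicate 4, and for cHF+PC+R against cHF+R 3.91% without cHF+R replicate 1.

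**Figure D3:**
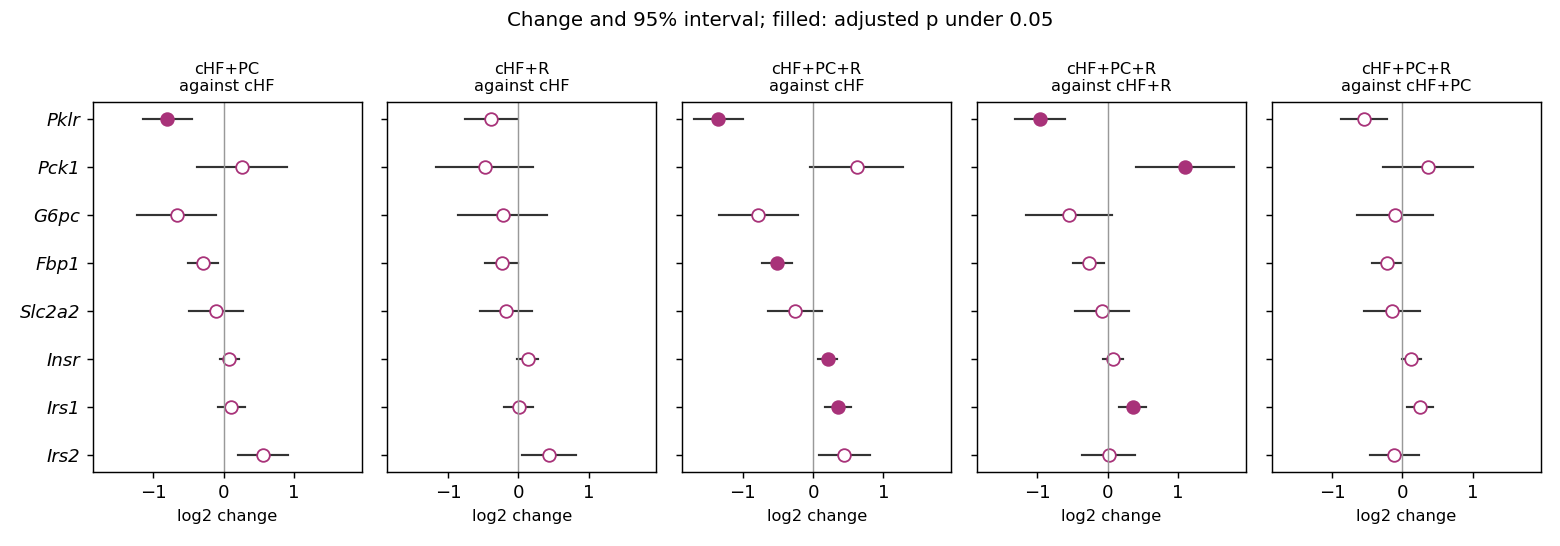
Log2 change (x axis) with its 95% interval for each gene (y axis) in 5 comparisons (panels); filled points have adjusted p under 0.05. Pklr lies below 0 in all 5 panels and is filled in 3, at -0.80, -1.34 and -0.96, while Pck1 is filled only against cHF+R at 1.096.

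The other genes of these pathways were read from 9 lists that hold 111 genes with the members, 101 of which were tested. With PC 6 rose and 2 fell, 7.92% of those tested, beside 3.93% of all genes. With R 2 rose and 4 fell (5.94%, background 3.12%). With PC+R 9 rose and 10 fell (18.8%, background 9.51%), and for cHF+PC+R against cHF+R 6 rose and 6 fell (11.9%, background 7.14%). None passed for cHF+PC+R against cHF+PC by limma, where 14 of the 101 and 1661 of all 19455 genes had an unadjusted p under 0.05. In that comparison 1 passed without cHF+PC replicate 2, with slide as a block or with array weights. The background for cHF+PC+R against cHF+PC was 0.134%. All these counts include the 8 members. Members and lists were chosen with earlier results of these data known, so their shares beside the background do not test the pathways. With arrays left out, the count with PC was 5 without cHF replicate 5 or 6 or cHF+PC replicate 4. That with R was 3 without cHF replicate 4 or cHF+R replicate 3 or 5, and that of cHF+PC+R against cHF+R was 6 without cHF+R replicate 1 and 7 without cHF+PC+R replicate 4. Over the 16 other alternatives the counts ran from 0 to 16 with PC, 0 to 7 with R, 1 to 24 with PC+R and 0 to 16 against cHF+R. Of the 37 calls of listed genes other than the 8, median centring kept 0, scaling between arrays 3 and Cy5 alone 21. The 3 kept after scaling were Pdk2 (0.47, adjusted p = 0.0464) and Klf15 (0.85, 0.0456) with PC and Hk2 with R (0.66, 0.035). Each call of a listed gene named below was lost under at least 1 alternative, and 21 of the 37 under 3 or more.

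The genes of sugar uptake and phosphorylation moved both ways, and the glycolysis genes that passed all fell. Ketohexokinase (Khk), the first enzyme of fructose breakdown, fell with PC+R (-0.69 ± 0.12, adjusted p = 0.000604, with values in 22 livers). It also passed against cHF+R (-0.46, adjusted p = 0.0394), which missed the threshold on leaving out cHF+R replicate 1 or 3 or cHF+PC+R replicate 1, 2, 5 or 7 (adjusted p up to 0.175). Slc2a1, the widely expressed glucose transporter GLUT1, rose with PC+R (0.36, adjusted p = 0.00976). Hexokinase Hk2 rose with R (0.68, adjusted p = 0.0244). Its cHF+R livers ran from -0.18 to 1.59 with a median of 0.32, and the call did not survive leaving out cHF replicate 4, cHF+R replicate 1 or cHF+R replicate 3 (adjusted p up to 0.0783, change down to 0.46). Of 15 tested glycolysis genes 4 fell and 0 rose with PC+R (4.76% and 4.74% of all genes), with a list median of -0.10. Among these were Pklr, Gapdh (-0.50, adjusted p = 0.00161) and lactate dehydrogenase A (Ldha, -0.38, adjusted p = 0.0238, and 0.0567 without cHF replicate 6). Ldha also fell with PC (-0.40, adjusted p = 0.0314), which missed the threshold without any of cHF replicates 3 to 6 or cHF+PC replicate 4, 6 or 7 (adjusted p up to 0.075). Enolase Eno1 was lower in cHF+PC+R than in cHF+R (-0.31, adjusted p = 0.0325), lost without cHF+R replicate 1, 3 or 4 or cHF+PC+R replicate 1, 2, 4, 5 or 7 (up to 0.119).

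Around glucose production and pyruvate the directions were mixed. The alanine aminotransferase gene Gpt, which feeds alanine carbon to pyruvate, rose with PC (0.41 ± 0.07, adjusted p = 0.000924), with PC+R (0.28, adjusted p = 0.00912) and for cHF+PC+R against cHF+R (0.44, adjusted p = 0.000326), and these calls held with each array left out. Slc37a4, which carries glucose-6-phosphate to the G6pc enzyme, fell with PC+R (-0.47, adjusted p = 0.0126) alongside Fbp1. Of the kinases that switch off pyruvate dehydrogenase, Pdk2 rose with PC (0.28, adjusted p = 0.00936) and PC+R (0.20, adjusted p = 0.0357). The latter missed the threshold on leaving out any of cHF replicates 3, 5, 6 and 7 or cHF+PC+R replicate 2, 5, 7 or 8 (adjusted p up to 0.0857). Pdk4 rose with R (1.06 ± 0.28, adjusted p = 0.0319), which missed it on leaving out any of cHF replicates 2 to 4 or any of cHF+R replicates 1, 2, 3 and 5 (up to 0.0854), and was lower in cHF+PC+R than in cHF+R (-1.09 ± 0.27, adjusted p = 0.0141). Pdk4 and Hk2 were highest in the group with the highest adipocyte markers, whose part was not tested. The dehydrogenase subunit gene Pdhb was lower in cHF+PC+R than in cHF+R (-0.36, adjusted p = 0.0308), lost without cHF+R replicate 1, 3, 4 or 5 or cHF+PC+R replicate 2 or 4 (up to 0.109). In glycogen metabolism, liver phosphorylase Pygl fell with PC+R (-0.40, adjusted p = 0.00697) and against cHF+R (-0.33, adjusted p = 0.0377). That second call was lost without cHF+R replicate 1, 3, 4 or 5 or cHF+PC+R replicate 1, 3, 4 or 7 (up to 0.124). Ugp2, which makes the UDP-glucose used for glycogen, fell with R (-0.46, adjusted p = 0.00853) and was higher in cHF+PC+R than in cHF+R (0.49, adjusted p = 0.0026).

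Among 16 tested insulin signalling genes 3 rose and 0 fell with PC+R, where 4.74% of all genes rose and 4.76% fell. The 3 were the members Insr and Irs1, each called on only some of its probes, and Foxo1. Foxo1, the factor that insulin excludes from the nucleus, rose by 0.17 (adjusted p = 0.0257). That rise missed the threshold on leaving out cHF replicate 3 or 7 or cHF+PC+R replicate 7 (adjusted p up to 0.0672). Foxo1 also rose with PC (0.18, adjusted p = 0.0418), lost without cHF replicates 3 to 7, each alone, or cHF+PC replicate 2, 3 or 4 (up to 0.106). Of 10 tested genes that restrain the pathway, the receptor-binding adaptor Grb14 fell with R (-0.33, adjusted p = 0.0165, and 0.0509 without cHF+R replicate 3) and PC+R (-0.25, adjusted p = 0.0338). The second missed it on leaving out cHF replicate 1 or 3 or cHF+PC+R replicate 1, 4, 6 or 7 (up to 0.0933). Among 15 regulators of glucose genes, Klf15, a factor that promotes amino acid use for glucose production, rose with PC (0.49 ± 0.12, adjusted p = 0.0138), with PC+R (0.47, adjusted p = 0.00904) and for cHF+PC+R against cHF+R (0.50, adjusted p = 0.00963). Ppargc1b, a coactivator of lipogenic and mitochondrial genes, rose with PC (0.40, adjusted p = 0.0435), lost without cHF replicate 3, 5, 6 or 7 or cHF+PC replicate 1, 2, 3, 4 or 7 (up to 0.118). Crtc2, the coactivator of the cAMP-responsive factor CREB, rose with PC+R (0.22, adjusted p = 0.0266), lost without cHF replicate 5 or 6 or cHF+PC+R replicate 4 (up to 0.0696). The ChREBP gene Mlxipl could not be followed, since its probe was well above background on 0 arrays. Of 9 receptors for other metabolic hormones, Adipor1 rose with PC (0.15, adjusted p = 0.0144) and the FGF21 co-receptor Klb rose with PC+R (0.34, adjusted p = 0.00643) and against cHF+R (0.27, adjusted p = 0.0394). The second call was lost without cHF+R replicate 1, 2, 4 or 6 or cHF+PC+R replicate 1, 3, 4 or 5 (up to 0.0852). The growth hormone receptor Ghr fell with R (-0.32, adjusted p = 0.022, but 0.01 under median centring, and adjusted p = 0.0546 without cHF+R replicate 5) and PC+R (-0.26, adjusted p = 0.0273). The second was lost without cHF replicate 2 or 5 or cHF+PC+R replicate 3 or 4 (up to 0.0626).

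**Figure D4:**
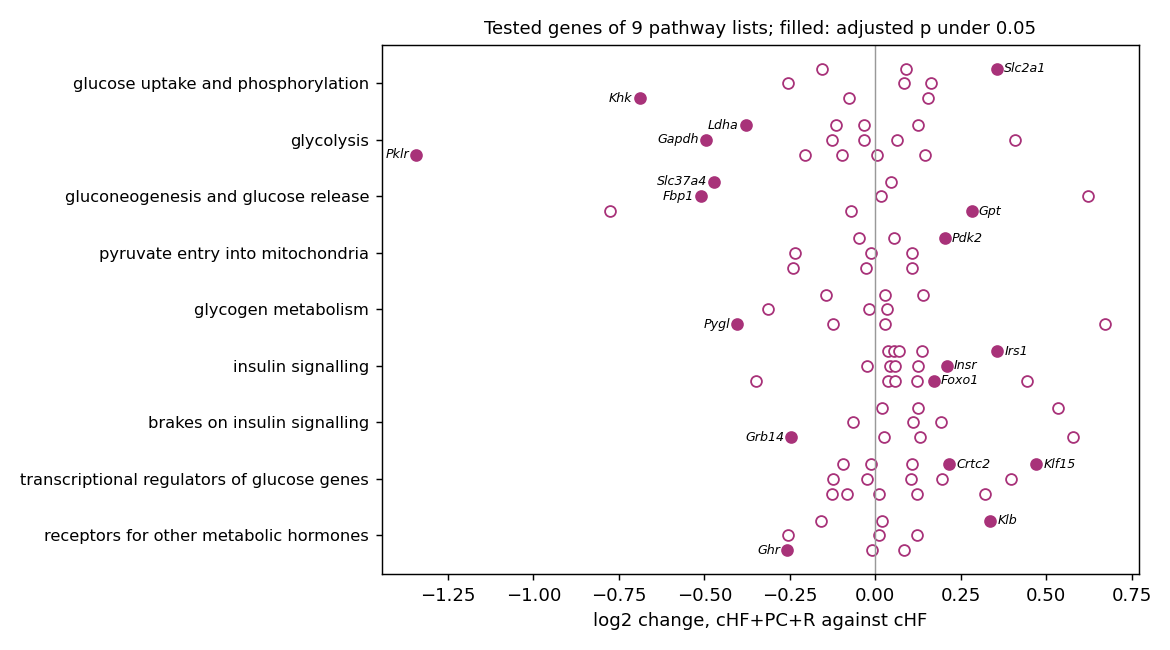
Log2 change of cHF+PC+R against cHF (x axis) for tested genes of 9 pathway lists (y axis); filled points have adjusted p under 0.05 and carry their symbol, and the vertical offset within a list has no meaning. The filled glycolysis genes all lie below 0, from -1.34 (Pklr) to -0.38 (Ldha), and the filled insulin signalling genes lie between 0.17 and 0.36.

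Over the 29 livers the gene whose log2 ratio was most like that of Pklr, among 19278 genes searched, was Tkfc, which phosphorylates the glyceraldehyde released in fructose breakdown (Pearson r = 0.94, Spearman rho = 0.92, and r = 0.90 after subtracting group means). The arrays share the pool and the labelling, and these correlations are descriptions. Without the 2 livers farthest from the median of Pklr, r was 0.92. Tkfc itself had medians of 0.43 in cHF, -0.02 in cHF+PC, 0.10 in cHF+R and -0.32 in cHF+PC+R livers, and its changes were -0.48 with PC (adjusted p = 0.0271) and -0.74 with PC+R (adjusted p = 0.000351). The next were Gm4929 and Gm2308, each at r = 0.93. Among the genes most like Fbp1 were Gm9081 (r = 0.78, rho = 0.72, and 0.62 after subtracting group means) and Gm12070 (r = 0.77).

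**Figure D5:**
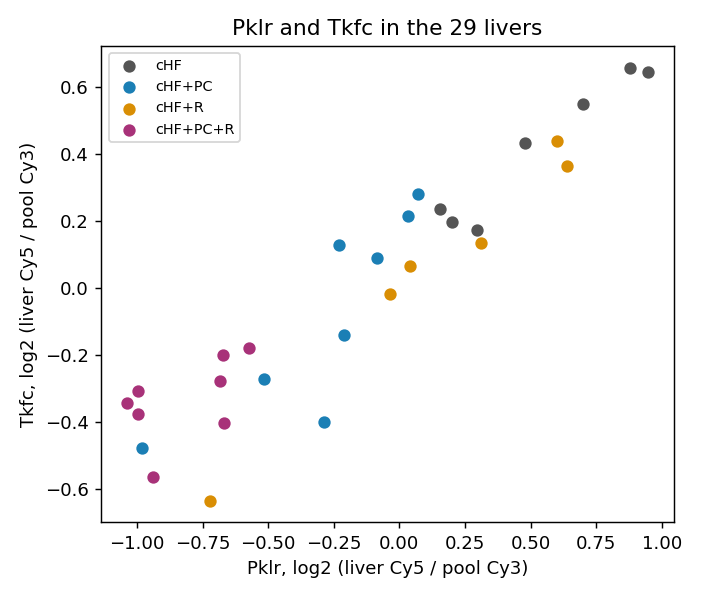
Log2 ratio to the pool of Pklr (x axis) and of Tkfc (y axis) in each of the 29 livers, coloured by diet group. The points lie along a rising line (r = 0.94), with the cHF+PC+R livers at the lower left and the cHF livers at the upper right.

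The likest genes of the other members were Zfp281, Ubtf and Spag7 for Pck1 (r = 0.82, 0.81 and 0.81), and Arhgef16, 4933438K21Rik and Snrpn for Slc2a2 over 22 livers (0.84, 0.84 and 0.83). For Insr they were Rad21, Ankrd11 and Prrc2b (0.81, 0.80 and 0.80), for Irs1 Fam210a, Dlc1 and Plekha7 (0.76, 0.73 and 0.72) and for Irs2 4833411C07Rik, C2 and Acrbp (0.81, 0.76 and 0.76). For G6pc it was 0610009B22Rik (0.77), followed by an unnamed transcript (0.73) and Gm8655 (0.72). Among the 28 pairs of the 8 genes, deviations from group means were most alike for Pklr and Slc2a2 (r = 0.83, rho = 0.72, 22 livers), and r was 0.68 without 2 livers. Pklr and Pck1 ran opposite ways within groups (r = -0.51, rho = -0.54, 28 livers, and -0.45 without 2). The pairs Pck1 and Irs2 (r = 0.50, rho = 0.27) and Pklr and Irs2 (r = -0.45, rho = -0.43) were weaker, and Pklr and Fbp1, both lower with PC+R, had r = 0.72 over all livers and 0.39 within groups.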

How the data were processed

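Liver RNA (Cy5) was set against a pool of the samples (Cy3) on Agilent 4x44K arrays. Scanner files of 29 arrays were used. An array each of cHF and cHF+R had been excluded before normalization, per the labels. The spot intensity values were deposited as extracted with Agilent Feature Extraction 10.5.1.1, per the submitters' processing notes. A value table of the authors, deposited as log2 values (25806 spots, column medians of 9.03) that track Cy5 intensity, served as an alternative. Its normalization is not given in the sources used.

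Local background was corrected with normexp (offset 50), outlier-marked spots were left out and log ratios were normalized by loess within arrays (limma 3.58.1, R 4.3.3, data.table, version 1.17.8). Genes were named from accessions (26412 of 39429 probes), symbols (3854) or synonyms (735) of RefSeq, and otherwise by the file's name (8428). A probe needed to be well above background in Cy5 on 6 arrays and to have a value on 20, which 23921 probes did. The brightest such probe stood for a gene. Means of 4 groups were fitted over all 29 arrays with lmFit and eBayes for 19455 genes, and p-values were adjusted by Benjamini-Hochberg with a threshold of 0.05. The number of arrays limits the precision. The procedure was tested on simulated data.

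The text names the 8 members, up to 4 called genes per pathway list and comparison with the smallest adjusted p, and the 3 genes most like each member. The values of 1 gene under this rule are not reported or drawn here, though counts of the lists include it. The members, the 9 pathway lists and the 9 cell marker lists (hepatocyte, Kupffer cell, sinusoidal endothelium, stellate cell, cholangiocyte, adipocyte, lymphocyte, erythroid, pancreas) were chosen with earlier results of these data known. The listed genes Pgk1, Pck2, Fbp2, Got1, Pdk3, Stbd1, Foxo3, Grb10, Tsc2 and Mlxipl did not pass the filter. Alternatives covered background, normalization, filter, probe choice, blocks, weights, samples in the fit and each array left out. Keeping outlier-marked spots was added after seeing the data.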

Additional observations from a re-analysis of the deposited data

Results flagged for a closer look

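In 6 of 44 groups of 5 to 8 livers 1 liver lay far from the others of its group by Dixon's criterion, which flags about 1 in 20 groups by chance. Pck1 reached 1.75 in cHF+PC+R replicate 7, and the next liver of that group was at 0.41. This liver raised the difference from cHF+R, which was 0.85 (adjusted p = 0.0999) without it. Slc2a2 stood at -0.76 in cHF+PC replicate 2 (next 0.14) and at -0.66 in cHF+R replicate 6 (next 0.03). The brighter Irs1 probe stood at 0.66 in cHF+PC replicate 5 (next 0.23), and the dimmer one at -0.28 in cHF+PC replicate 2 (next -0.07). The third Insr probe stood at 0.32 in cHF+PC+R replicate 4 (next 0.11).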

How the results depend on the processing

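Over 16 alternatives, the call of Pklr for cHF+PC+R against cHF held in all and with each array left out. For cHF+PC against cHF the 1 called member became 2 without background subtraction, with the Feature Extraction processed signals and with the deposited table, 3 with array weights and 0 under median centring. For cHF+PC+R against cHF the 4 became 1 under median centring and scaling between arrays and 2 with Cy5 alone. The 3 for cHF+PC+R against cHF+R became 0 under median centring and scaling. The 0 for cHF+R against cHF became 1 with only the groups compared, and the 0 for cHF+PC+R against cHF+PC became 1 with array weights. With arrays left out the counts ran from 1 to 2, 3 to 5 and 1 to 3 in the first 3 of these comparisons. The cause of these shifts was not tested.

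Of 34 same-numbered pairs of livers 11 deviated together with r over 0.1 (-0.35 to 0.40). Since 22 of the 34 pairs also shared a slide, this cannot tell whether the replicate numbers pair the livers. The replicate block gave 2 called members for cHF+PC against cHF, adding Irs2 (0.61, adjusted p = 0.0378), and lost Pck1 against cHF+R (1.04, adjusted p = 0.0747).

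Of the called changes that of Ghr for cHF+R against cHF turned sign, to 0.0061 under median centring. Some changes that did not pass turned sign too. For cHF+R against cHF, Irs1 was -0.031 without background subtraction, -0.0084 with processed signals, -0.075 after scaling, -0.071 in the deposited table and -0.057 with array weights, and -0.042 to 0.049 with arrays left out. Under median centring G6pc was 0.13, Fbp1 0.14 and Slc2a2 0.11 there, and Slc2a2 0.024 after scaling. For cHF+PC against cHF, Pck1 was -0.24 after scaling and -0.011 with weights, and Slc2a2 was 0.20 and 0.056, and -0.20 to 0.11 with arrays left out. For cHF+PC+R, Irs2 against cHF+R was -0.061 under median centring, -0.020 with weights and -0.10 to 0.11 with arrays left out. Against cHF+PC, Slc2a2 was 0.12 under median centring, and G6pc 0.73 after scaling and -0.30 to 0.014 with arrays left out.

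Calls over all genes numbered 765 (cHF+PC against cHF), 607 (cHF+R against cHF), 1850, 1389 and 26 (cHF+PC+R against cHF, cHF+R and cHF+PC). They were 10, 82, 77, 52 and 2 under median centring, 253, 70, 144, 74 and 5 after scaling, and 390, 302, 767, 658 and 39 with Cy5 alone. The last comparison gave 81 without background subtraction, 56 with processed signals, 61 in the deposited table, 11 with only the groups compared and 114 with weights. The first gave 1187 without subtraction and 1170 with weights, and cHF+PC+R against cHF+R 785 with only the groups compared. With arrays left out the 5 counts ran from 440 to 872, 456 to 685, 1378 to 2021, 760 to 1977 and 13 to 56. The first was 482 without cHF replicate 5 and 440 without cHF+PC replicate 4, and the fourth 760 without cHF+R replicate 1. The last was 13 to 17 without any of cHF+PC replicates 3, 6 and 7 or cHF+PC+R replicates 3, 4, 6 and 8, 46 without cHF+PC+R replicate 5 and 56 without cHF+PC+R replicate 2. Higher genes made up 46.3, 64.9, 49.9, 46.4 and 88.5% of calls, but 39.4, 30.6 and 58.5% for cHF+R against cHF and cHF+PC+R against cHF and cHF+R in the deposited table. The median change of all genes in cHF+R against cHF was 0.014 in the main fit and 0.15 under median centring. Probes near background, such as the dimmer Irs1 probe, limit what can be seen, and the interaction was not run with only the groups compared.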
